A study of Homo sapiens with 6 samples.

Results

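The enzymes that build nucleotides and supply their folate-bound carbon were followed in U2OS cells, a human osteosarcoma line, after SURF2 was lowered with an siRNA. The members were 38 listed genes of purine, pyrimidine, deoxynucleotide and folate metabolism, found by symbol among 58051 gene rows of a table of raw read counts. All 38 were found once, and 37 passed the filter on low counts. Polyadenylated RNA was sequenced from 3 libraries of cells given a scrambled siRNA (siSCR) and 3 libraries of cells given the SURF2 siRNA (siSURF2). Both groups were grown with 10% serum, transfected at 2 times 49 h apart and harvested at 96 h. The comparison asked which mRNAs differed when SURF2, named in the title of the series as an antagonist of MDM2 in nucleolar stress, was lowered. Every value rests on a single cell line and on siRNAs whose sequences were not used here.

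Cells make purines by building the ring stepwise on phosphoribosyl pyrophosphate (PRPP) up to inosine monophosphate (IMP), from which AMP and GMP branch. Pyrimidines are made as a free ring that is joined to PRPP and becomes UMP and then CTP. Ribonucleotide reductase turns ribonucleotides into deoxynucleotides, thymidylate synthase adds the methyl group of thymine, and folate carries the carbon units for purines and thymine. Proliferating cells rely on these routes for RNA and DNA synthesis, and several of the enzymes are known to be transcribed mainly in S phase.

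The libraries held 17123333 to 19688089 counts assigned to genes, so 1 unit of CPM, the count scaled to a library of 1000000, was 16.8 to 20.0 counts. SURF2 itself was at 36.2, 35.8 and 32.3 CPM in siSCR replicates 1, 2 and 3 and at 3.74, 3.56 and 3.20 CPM in siSURF2 replicates 1, 2 and 3, a 9.93-fold lower mean (edgeR adjusted p = 3.7e-20). SiSURF2 replicate 2 stood apart from siSURF2 replicates 1 and 3 (chi-square per degree of freedom 8.72 and 10.2, against 2.86 between those libraries), and 2.73% of its counts were mitochondrial, against 4.70% and 4.74%. The labelled cell type was checked against 7 mesenchymal or osteoblast-lineage markers. Their summed level was 3302 to 3389 CPM in siSCR and 3764 to 4100 CPM in siSURF2, although COL1A2 was at only 0.129 CPM in siSCR. VIM (1964 CPM) and SPARC (1019 CPM) made up most of the siSCR sum, while RUNX2 was at 22.8 CPM. Of 4 blood markers none passed the filter and CD3E and HBB had no count. The 5 epithelial markers summed to 9.04 to 9.17 CPM in siSCR and 9.81 to 10.8 CPM in siSURF2. Within this sum EPCAM rose from a mean of 4.4 CPM in siSCR to 8.7 CPM in siSURF2, and CDH1 fell from 3.2 to 0.48 CPM. The 3 endothelial markers summed to 4.40 to 5.39 CPM in siSCR and 3.20 to 4.25 CPM in siSURF2. Of 3 neural markers, SOX10 had no count and RBFOX3 was at 27.7 CPM in siSCR and 13.8 CPM in siSURF2.

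Most of the enzymes of nucleotide synthesis fell with siSURF2. Of 37 members tested, 25 fell, 2 rose and 10 missed the threshold (quasi-likelihood F-test of edgeR, p adjusted by Benjamini-Hochberg over 17561 genes, threshold 0.05). That is 67.6% lower and 5.41% higher, where 52% of all genes tested were called, 26.2% lower and 25.8% higher. The median log2 fold change was -0.24 over the members and 0.00 over all genes tested, and 31 of the 37 values were negative. The changes were small: the largest fall was 1.75-fold, for DTYMK, and the largest rise 1.45-fold, for SAMHD1. The siSURF2 libraries all lay below the siSCR libraries for 25 members and above them for 2, which holds for 28.6% of all genes tested in each direction. Without siSURF2 replicate 2 the same 25 members were lower and the same 2 higher. In these bulk samples, fewer cells in S phase and less RNA of a gene per cell cannot be told apart. Nothing in the labels tells if the replicates came from separate cultures, and the p-values then reflect only a spread between libraries that may be technical. When library sizes were set by the ERCC spike-ins, 1 member (DTYMK) was called lower and 0 higher with edgeR (7 lower and 0 higher at an unadjusted p under 0.05), and only 825 of all genes were lower and 802 higher. The 27 called members kept their direction there, but the spike-in share of the counts ran from 1.12% to 1.72% and overlapped between groups.

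**Figure D1:**
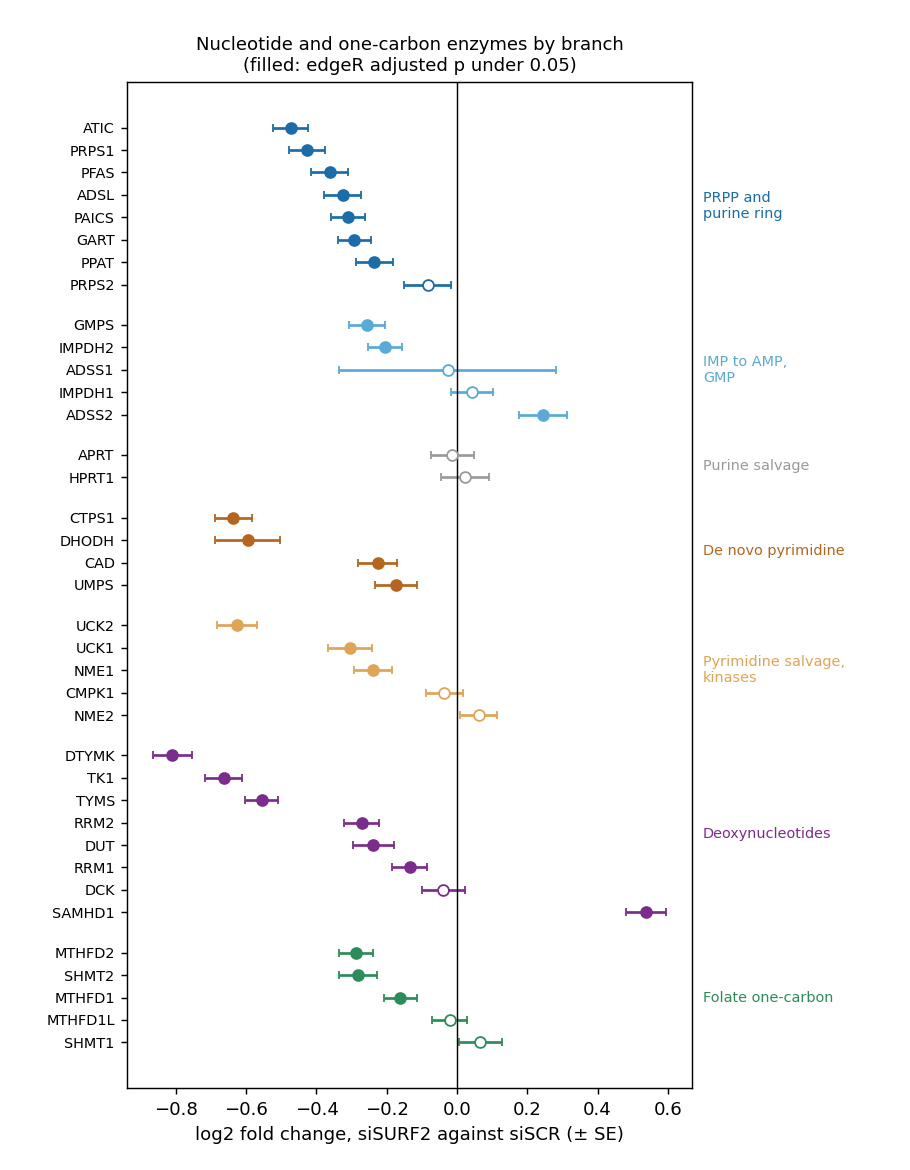
Log2 fold change of siSURF2 against siSCR (horizontal axis, with its standard error) for the 37 members tested, grouped by branch. Filled points passed an adjusted p of 0.05; 25 of them lie left of 0, and SAMHD1 and ADSS2 lie right of it.

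The sequences below lie near the starts of members that moved together or apart, and their part in these changes was not tested. PPAT and PAICS, enzymes of the same route, are transcribed away from each other on chromosome 4, and 125 bases lie between their starts in GENCODE release 29. This stretch, chr4:56435616-56435740 (GRCh38), is printed on the strand of PPAT from RefSeq and holds none of the E2F, CCAAT or E-box letters searched. The other sequences are the 250 bases before the RefSeq start (GRCh38.p14) of DTYMK, TYMS and RRM2, which fell, and of SAMHD1, which rose. They are from chr2:241686816-241687065 (minus strand), chr18:657403-657652 (plus), chr2:10122489-10122738 (plus) and chr20:36951709-36951958 (minus). In GENCODE release 29 the outermost transcript of each of these genes starts within its window or, for RRM2, upstream of it, so the windows hold bases that are transcribed in that annotation. Capitals mark a match to an E2F, CCAAT or E-box word on either strand.
PPAT-PAICS: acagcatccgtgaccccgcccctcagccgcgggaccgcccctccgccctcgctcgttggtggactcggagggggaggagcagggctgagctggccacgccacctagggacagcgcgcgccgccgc
DTYMK: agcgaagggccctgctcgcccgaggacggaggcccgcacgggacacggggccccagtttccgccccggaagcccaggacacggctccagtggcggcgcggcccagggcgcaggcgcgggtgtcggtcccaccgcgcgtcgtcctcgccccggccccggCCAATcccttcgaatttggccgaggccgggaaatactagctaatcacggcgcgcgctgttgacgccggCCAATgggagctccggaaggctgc
TYMS: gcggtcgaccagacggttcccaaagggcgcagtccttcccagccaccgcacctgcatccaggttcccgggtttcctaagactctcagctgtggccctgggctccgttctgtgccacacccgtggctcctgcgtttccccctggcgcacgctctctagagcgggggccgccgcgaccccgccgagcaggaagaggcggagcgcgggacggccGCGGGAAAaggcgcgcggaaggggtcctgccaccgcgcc
RRM2: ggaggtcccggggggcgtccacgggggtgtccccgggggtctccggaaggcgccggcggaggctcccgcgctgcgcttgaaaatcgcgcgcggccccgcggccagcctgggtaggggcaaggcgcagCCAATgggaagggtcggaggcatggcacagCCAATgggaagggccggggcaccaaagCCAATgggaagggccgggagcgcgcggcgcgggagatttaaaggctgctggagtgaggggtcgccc
SAMHD1: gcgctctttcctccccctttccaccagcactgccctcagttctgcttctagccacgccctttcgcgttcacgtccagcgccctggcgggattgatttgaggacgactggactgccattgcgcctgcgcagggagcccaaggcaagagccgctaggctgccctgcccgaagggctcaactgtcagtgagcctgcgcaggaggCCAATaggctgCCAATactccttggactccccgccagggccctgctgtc

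The search covered the 250 bases before the start of 27305 RefSeq genes, both strands, and 35 of the 38 members were in the table. ADSL, IMPDH2 and SHMT2 were not. The E2F words were TTTCCCGC, TTTCGCGC, TTTGCCGC and TTTGGCGC, found in 2.79% of all windows and in 2 member windows, those of PRPS2 and TYMS. The TYMS match begins 39 bases before the start. CCAAT, the core of the element bound by NF-Y, was in 33.0% of all windows and in 14 of 35 member windows (40.0%), and 11 of those 14 members fell, where 22 of the 34 tested members with a window fell (64.7%). RRM2 had 3 such matches and DTYMK and SAMHD1 had 2 each, so the letters were present in members that fell and in one that rose. The E-box CACGTG, bound by MYC and MAX among others, was in 6.49% of all windows and in 6 member windows (PPAT, ATIC, DHODH, DCK, MTHFD1 and MTHFD1L), of which 4 belonged to members that fell. No difference in the share that fell between members with and without a word was tested. TGATGNAA, the core of the ATF4 element, was in 3.19% of windows and in MTHFD1L only, and TTTGAA, the cell cycle homology element, in 13.6% of windows and in ADSS2, UMPS and RRM1. The windows of TK1 and DUT, which also fell, are not printed and held no match to any of these words. No word contains another of these words. These matches are letters in a window and not measured sites.

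By number, the supply of PRPP and the route from it to IMP held the most members that fell. De novo pyrimidine synthesis had the larger share that fell (100% of 4 tested) and the more negative median log2 fold change (-0.41). Of 8 members, 7 fell and PRPS2, an isozyme of PRPS1, missed the threshold (-0.08 ± 0.07), with a median log2 fold change of -0.32. The share that fell was 87.5%, where 26.2% of all genes tested were lower and 25.8% higher. ATIC, which closes the purine ring with a folate-borne formyl group, was at 135.0, 137.7 and 137.5 CPM in siSCR replicates 1, 2 and 3 and at 100.8, 97.7 and 97.2 CPM in siSURF2. Its siSURF2 libraries were within a few CPM of each other and all far below siSCR, with a log2 fold change (± SE) of -0.47 ± 0.05 and an edgeR adjusted p of 5.6e-09. PRPS1, which makes PRPP, was at 115.2, 116.9 and 110.9 CPM in siSCR and 83.5, 85.5 and 86.1 CPM in siSURF2 (log2 fold change -0.43 ± 0.05, edgeR adjusted p = 6.2e-08). PFAS, which adds a nitrogen from glutamine, was at 96.0, 97.6 and 94.6 CPM in siSCR and 75.0, 77.7 and 71.4 CPM in siSURF2 (-0.36 ± 0.05). Neither gene had an overlap between groups.

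The remaining purine ring enzymes moved by less. PPAT, which commits PRPP to purines, was at 97.3, 96.6 and 96.7 CPM in siSCR and 81.0, 85.9 and 79.9 CPM in siSURF2 (-0.24 ± 0.05, edgeR adjusted p = 4.4e-04). PAICS, its head-to-head neighbour and an enzyme of 2 ring steps, was at 564.7, 579.7 and 565.2 CPM in siSCR and 441.5, 480.7 and 456.1 CPM in siSURF2 (-0.31 ± 0.05, adjusted p = 3.9e-06). Both genes had their highest siSURF2 value in replicate 2. GART, which carries out several early steps, had a log2 fold change of -0.29 ± 0.05, and ADSL, which removes fumarate in the ring and again on the way to AMP, of -0.33 ± 0.05. The 6 enzymes from PPAT to IMP thus lay at 72.1% (ATIC) to 84.9% (PPAT) of their siSCR means. Counts of PAICS are uncertain because 7 pseudogenes carry its name in the table, and 18.9% of the exon bases of ADSL are shared with another gene on the same strand.

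The branch from IMP did not move as a block. Of its 5 members 2 fell, 1 rose and 2 missed the threshold, with a median log2 fold change of -0.03. These are 40.0% lower and 20.0% higher, where 26.2% of all genes tested were lower and 25.8% higher. GMPS, which makes GMP, was at 168.0, 172.1 and 160.4 CPM in siSCR and 141.5, 143.6 and 133.9 CPM in siSURF2 (-0.26 ± 0.05, edgeR adjusted p = 1.1e-04). IMPDH2, the inducible form of the rate-limiting enzyme of guanine nucleotides, was at 469.4, 464.2 and 488.3 CPM in siSCR and 404.5, 426.4 and 403.4 CPM in siSURF2 (-0.20 ± 0.05, adjusted p = 7.1e-04). GMPS and IMPDH2 were lower in all siSURF2 libraries than in any siSCR library, while the groups overlapped for IMPDH1, the isozyme of IMPDH2. On the adenine side ADSS2, which commits IMP to AMP, was at 33.9, 33.6 and 37.8 CPM in siSCR and 39.1, 42.3 and 43.4 CPM in siSURF2, higher in each siSURF2 library (0.24 ± 0.07, edgeR adjusted p = 0.0035). IMPDH1, for which 10 pseudogenes are named, had a log2 fold change of 0.04 ± 0.06. ADSS1, the muscle form, was at 18 to 28 counts per library and its value of -0.03 ± 0.31 has a wide error. The salvage enzymes HPRT1, which reuses hypoxanthine and guanine, and APRT, which reuses adenine, were at 0.02 ± 0.07 and -0.01 ± 0.06, neither past the threshold and both with overlapping groups.

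**Figure D2:**
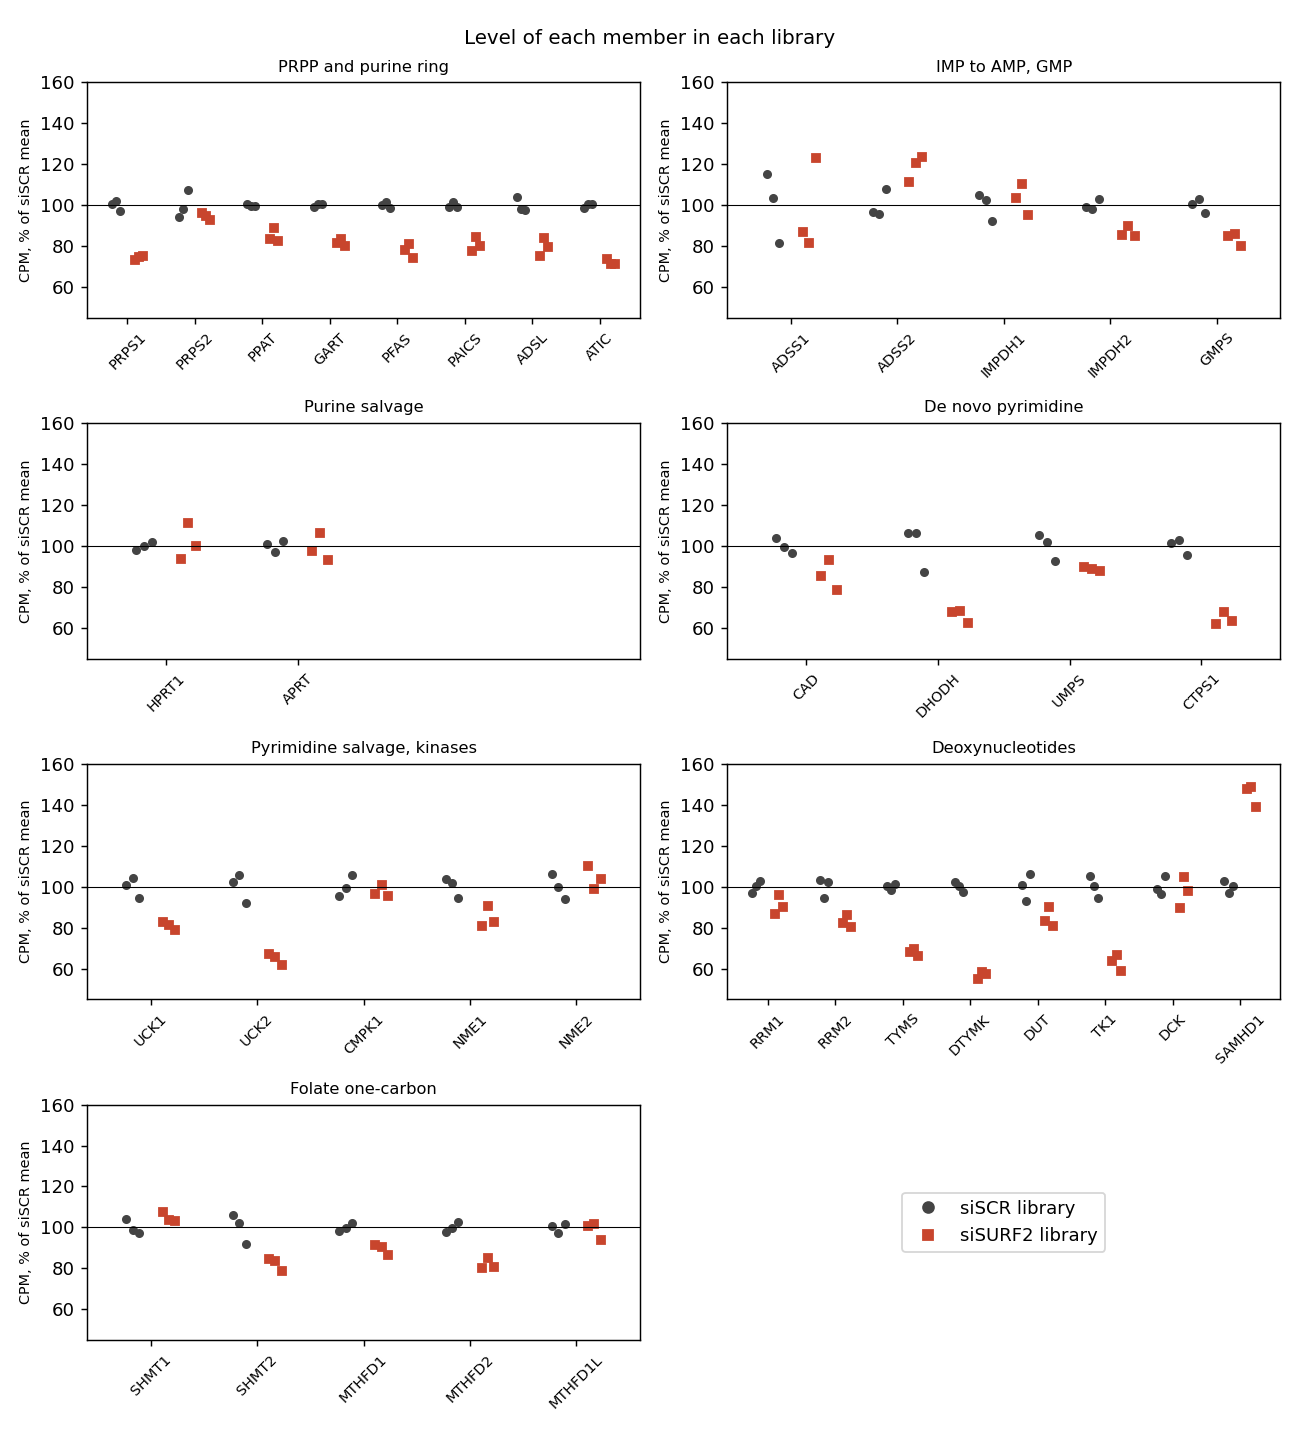
Level of each of the 37 members tested in each library, as a percentage of the siSCR mean of its CPM (vertical axis), with circles for siSCR and squares for siSURF2 and 1 panel per branch. The ring enzymes from PPAT to ATIC and the enzymes CTPS1, UCK2, TYMS, DTYMK and TK1 have all siSURF2 squares below the circles, while SAMHD1 has them above.

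All 4 tested enzymes of pyrimidine synthesis fell (median log2 fold change -0.41), where 26.2% of all genes tested were lower and 25.8% higher. CTPS1, which turns UTP into CTP, was at 202.0, 205.4 and 190.6 CPM in siSCR and 123.0, 135.0 and 126.5 CPM in siSURF2, a 1.55-fold lower mean (-0.64 ± 0.05, edgeR adjusted p = 3.2e-11). DHODH, the mitochondrial dehydrogenase of the route, was at 22.3, 22.3 and 18.2 CPM in siSCR and 14.1, 14.3 and 13.1 CPM in siSURF2 (-0.60 ± 0.09, edgeR adjusted p = 4.1e-06). CAD, which starts the ring, was at 211.9, 202.8 and 196.6 CPM in siSCR and 173.7, 189.6 and 159.6 CPM in siSURF2 (-0.23 ± 0.06, edgeR adjusted p = 0.0013). The highest siSURF2 value of CAD, in replicate 2, came close to the lowest siSCR value. UMPS, which completes UMP, was at -0.17 ± 0.06 (edgeR adjusted p = 0.016). The UMPS call was lost without siSCR replicate 1 or 2 (adjusted p = 0.061 and 0.080), without siSURF2 replicate 1 or 3 (0.057 and 0.051), with upper-quartile factors (0.071) and with no filter (0.054), with 0.77 under spike-in scaling as the highest value. CTPS2, the other CTP synthase, had 1 or 2 counts in every library, at or under the 3 counts that a count of 0 would allow, and so gave no fold change.

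Among pyrimidine salvage and nucleotide kinases 3 of 5 members fell (60.0%, median log2 fold change -0.24), where 26.2% of all genes tested were lower. UCK2, a uridine and cytidine kinase, was at 128.3, 132.0 and 115.1 CPM in siSCR and 84.0, 82.3 and 77.0 CPM in siSURF2 (-0.63 ± 0.06, edgeR adjusted p = 3.7e-10). UCK1, its isozyme, was at 51.2, 52.8 and 48.0 CPM in siSCR and 41.8, 41.3 and 39.9 CPM in siSURF2 (-0.30 ± 0.06, adjusted p = 1.4e-04). Both uridine kinases had groups that did not overlap, and UCK2 fell further. NME1, a nucleoside diphosphate kinase, was at 231.6, 226.7 and 211.2 CPM in siSCR and 180.2, 202.5 and 184.4 CPM in siSURF2 (-0.24 ± 0.05, adjusted p = 4.1e-04). NME2, its neighbour and close paralog, had a log2 fold change of 0.06 ± 0.05 and CMPK1, which phosphorylates UMP and CMP, of -0.04 ± 0.05. A read-through gene that shares 18.6% of the exon bases of NME1 and 22.9% of those of NME2 rose from 2.16 ± 0.330 to 4.18 ± 0.595 CPM (SD, n = 3 each). How reads shared by these genes were assigned is not stated in the labels.

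The deoxynucleotide branch held both the largest fall and the largest rise. Of 8 members 6 fell, SAMHD1 rose and DCK, which salvages deoxycytidine, did not pass the threshold (-0.04 ± 0.06). The median log2 fold change was -0.25. These are 75.0% lower and 12.5% higher, where 26.2% of all genes tested were lower and 25.8% higher. DTYMK, which phosphorylates dTMP from both synthesis and salvage, was at 98.8, 96.7 and 94.2 CPM in siSCR and 53.1, 56.4 and 55.5 CPM in siSURF2 (-0.81 ± 0.05, edgeR adjusted p = 6.8e-13). TK1, the cytosolic thymidine kinase of S phase, was at 454.2, 433.8 and 407.4 CPM in siSCR and 275.8, 287.8 and 254.0 CPM in siSURF2 (-0.66 ± 0.05, adjusted p = 2.5e-11). TYMS, thymidylate synthase, was at 956.6, 935.9 and 964.1 CPM in siSCR and 649.5, 663.5 and 630.7 CPM in siSURF2 (-0.56 ± 0.05, adjusted p = 7.8e-11). These 3 enzymes of thymine nucleotides were at 57.0%, 63.1% and 68.0% of their siSCR means, with no overlap between groups.

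For TYMS, 39.2% of exon bases are also exons of ENOSF1 on the opposite strand, and nothing in the labels tells whether the counting used strand. ENOSF1 was at 44.9 ± 3.68 CPM in siSCR and 45.1 ± 2.09 CPM in siSURF2 (SD, n = 3 each), and TYMSOS, transcribed away from the TYMS start, rose from 8.11 ± 0.609 to 12.1 ± 1.84 CPM. No other gene of GENCODE release 29 shares exon bases with DTYMK or TK1.

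The subunits of ribonucleotide reductase moved less. RRM2, the small subunit made in S phase, was at 419.9, 384.2 and 414.9 CPM in siSCR and 334.5, 349.8 and 326.0 CPM in siSURF2 (-0.27 ± 0.05, edgeR adjusted p = 4.2e-05). Its counts are uncertain because 20.2% of its exon bases are shared with AC007240.1 on the same strand and 3 pseudogenes carry its name. RRM1, the large subunit, was at 202.5, 209.7 and 215.5 CPM in siSCR and 181.8, 201.0 and 188.9 CPM in siSURF2 (-0.14 ± 0.05, edgeR adjusted p = 0.027), so that its highest siSURF2 library came just under its lowest siSCR library. The RRM1 call was lost without siSCR replicate 2 (adjusted p = 0.084), without siSURF2 replicate 1 or 3 (0.23 and 0.067), with upper-quartile or no factors (0.11 and 0.066) and with no filter (0.099), with 0.78 under spike-in scaling as the highest value. DUT, which destroys dUTP and so feeds dTMP synthesis, was at -0.24 ± 0.06 (adjusted p = 0.0011), with 8 pseudogenes named after it. SAMHD1, which breaks deoxynucleoside triphosphates down, was at 52.9, 50.0 and 51.8 CPM in siSCR and 76.3, 76.7 and 71.6 CPM in siSURF2 (0.54 ± 0.06, adjusted p = 6.4e-09). Its siSURF2 libraries all lay above siSCR.

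In the folate branch 3 of 5 members fell (60.0%, median log2 fold change -0.16), where 26.2% of all genes tested were lower. MTHFD2, the mitochondrial dehydrogenase and cyclohydrolase of proliferating cells, was at 353.7, 361.6 and 371.2 CPM in siSCR and 289.8, 307.6 and 292.8 CPM in siSURF2 (-0.29 ± 0.05, edgeR adjusted p = 1.0e-05). SHMT2, which takes the carbon from serine in mitochondria, was at 228.5, 219.9 and 198.6 CPM in siSCR and 182.1, 180.3 and 169.5 CPM in siSURF2 (-0.28 ± 0.05, adjusted p = 6.8e-05). MTHFD1, the cytosolic enzyme that makes formyl- and methylene-folate, was at 440.1, 446.4 and 458.2 CPM in siSCR and 410.3, 405.2 and 386.9 CPM in siSURF2 (-0.16 ± 0.05, adjusted p = 0.0054). All had groups that did not overlap. SHMT1, the cytosolic counterpart of SHMT2, was at 0.07 ± 0.06 and MTHFD1L, which releases formate from mitochondria, at -0.02 ± 0.05, neither past the threshold. Counts of MTHFD2 are uncertain because 7 pseudogenes carry its name and 27.2% of its exon bases lie opposite SLC4A5, itself at 0.987 ± 0.138 CPM in siSCR.

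Per length, the members spanned a wide range of levels. In CPM per kb of merged exons the highest siSCR means were those of TYMS (385.5), TK1 (232.0), IMPDH2 (170.9 ± 4.57, SD) and NME2 (161.0 ± 9.88), the last pair differing by less than the sum of their spreads. The lowest were those of ADSS1 (0.197), DHODH (3.02) and SAMHD1 (4.58), beside CTPS2 with its 1 or 2 counts. Of the 4 highest, TYMS, TK1 and IMPDH2 were lower in siSURF2, and SAMHD1 was among the lowest in both groups even after its rise (6.65). Exons of all transcripts are merged here, so genes with long rare transcripts have levels that are too low. Besides the members given above with pseudogenes, PRPS1, PPAT and TYMS have 2 named after each, and HPRT1 and NME2 have 3. GMPS, NME1, SHMT1 and MTHFD1 have 1 each, so the counts of all these genes are uncertain too.

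**Figure D3:**
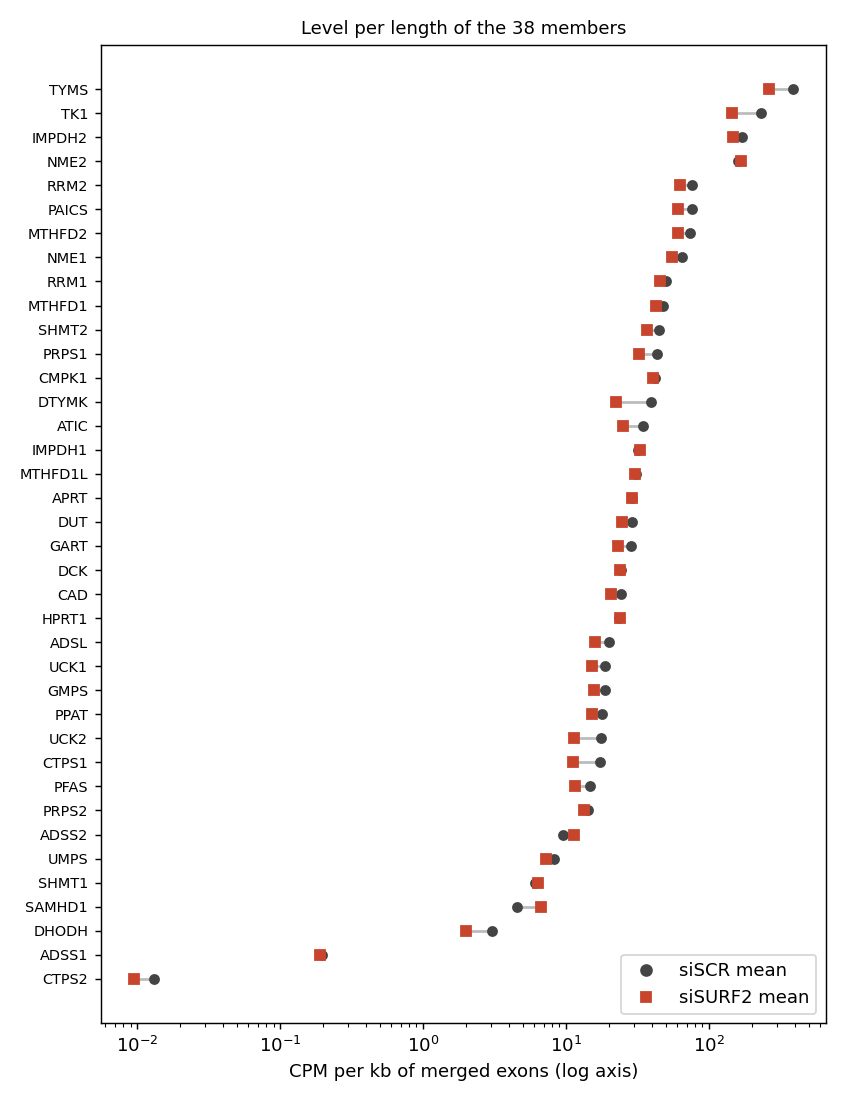
Mean level of the 38 members in siSCR (circles) and siSURF2 (squares) in CPM per kb of merged exons, on a log axis. TYMS (385.5 in siSCR) is at the top, and CTPS2, with 1 or 2 counts per library, is at the bottom.

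Isozymes of the same reaction were compared as a ratio within each library, which does not depend on the scaling of libraries. Of 9 pairs, 8 had ratios that did not overlap between groups, and each of these gave an exact two-sided permutation p of 0.10, the smallest that 3 against 3 libraries allow (0.11 adjusted over the 9 pairs). The levels of single genes did not overlap for 28.6% of all genes tested in each direction. The share for ratios of other gene pairs was not counted, so the 8 pairs are not shown to differ from them. The largest shift was in the thymidine kinases. The log2 ratio of TK1 to TK2, the mitochondrial form, was 4.14, 3.95 and 3.83 in siSCR and 2.99, 3.10 and 2.75 in siSURF2, a difference of -1.03. The TK2 level was 25.8, 28.1 and 28.6 CPM in siSCR and 34.8, 33.5 and 37.8 CPM in siSURF2 (log2 fold change 0.36 ± 0.07, edgeR adjusted p = 1.1e-04). TK1 and TK2 therefore moved in opposite directions, each past the threshold.

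The same held for the small subunits of the reductase. RRM2B, the DNA damage-inducible subunit that also works outside S phase, was at 182.7, 169.5 and 189.2 CPM in siSCR and 251.0, 262.1 and 266.3 CPM in siSURF2 (0.53 ± 0.05, edgeR adjusted p = 1.1e-09). The log2 ratio of RRM2 to RRM2B was 1.20, 1.18 and 1.13 in siSCR and 0.41, 0.42 and 0.29 in siSURF2, a difference of -0.80. Per length, RRM2 was 2.35 times as abundant as RRM2B in siSCR and 1.35 times in siSURF2. The pseudogenes of RRM2 and its exon bases shared with AC007240.1, both given above, are a limit on both ratios.

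Another pair moved apart in mitochondrial folate metabolism. MTHFD2L, the isozyme of MTHFD2 found in adult tissues, was at 24.8, 25.5 and 27.7 CPM in siSCR and 39.3, 34.0 and 42.0 CPM in siSURF2 (0.56 ± 0.08, edgeR adjusted p = 5.6e-07). The log2 ratio of MTHFD2 to MTHFD2L was 3.84, 3.83 and 3.75 in siSCR and 2.88, 3.18 and 2.80 in siSURF2, a difference of -0.85. MTHFD2 nevertheless stayed the more abundant form per length, at 28.1 times MTHFD2L in siSCR and 15.6 times in siSURF2.

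The other ratios shifted by 0.25 to 0.35 on the log2 scale. PRPS1 to PRPS2 differed by -0.35, NME1 to NME2 by -0.30, IMPDH1 to IMPDH2 by 0.25, UCK1 to UCK2 by 0.32 and SHMT1 to SHMT2 by 0.35. In each of these the form with the more negative fold change was the one listed above as having fallen, or fallen further. The ratio of ADSS1 to ADSS2 overlapped between groups (difference -0.29, exact p = 0.30), with the few counts of ADSS1 behind it.

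**Figure D4:**
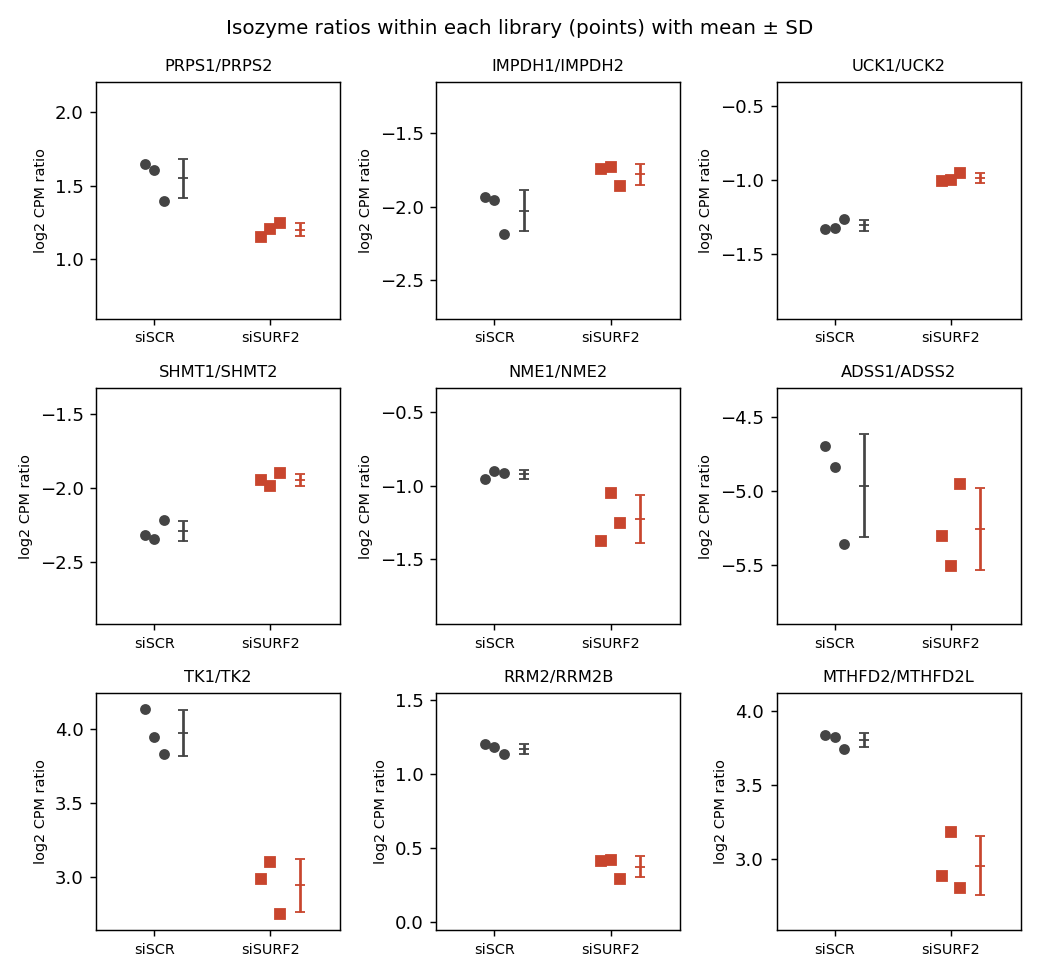
Log2 ratio of the CPM of isozymes within each library (vertical axis; every panel spans the same range), with circles for siSCR, squares for siSURF2 and bars for mean ± SD. The ratios TK1/TK2, RRM2/RRM2B and MTHFD2/MTHFD2L dropped by 1.03, 0.80 and 0.85.

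Genes of the same pathways outside the 38 were called in both directions. Of 23 tested genes of other purine steps 8 fell and 10 rose (median 0.00), of 21 other pyrimidine and deoxynucleotide genes 6 fell and 7 rose (0.03), and of 26 other folate, methionine and serine genes 8 fell and 8 rose (0.02). These are 34.8%, 28.6% and 30.8% lower and 43.5%, 33.3% and 30.8% higher, where 26.2% of all genes tested were lower and 25.8% higher. The difference between these lists and the members was not tested. NT5C2, a purine nucleotidase, had a log2 fold change of -0.86 ± 0.06, while GMPR2, which returns GMP to IMP, was at 0.84 ± 0.06 and AK3, a mitochondrial adenylate kinase, at 0.58 ± 0.07. DPYD, which starts the breakdown of uracil and thymine, was at 4.58, 4.12 and 5.65 CPM in siSCR and 13.6, 15.1 and 15.6 CPM in siSURF2, a 3.09-fold higher mean (1.62 ± 0.12, edgeR adjusted p = 9.6e-12). The nucleotidases NT5C and NT5C3A fell by 0.59 ± 0.08 and by 0.41 ± 0.07, while their relative NT5C3B, named after its value was seen, was higher (0.41 ± 0.06, edgeR adjusted p = 2.6e-06).

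MTFMT, which formylates mitochondrial initiator tRNA, was at -0.46 ± 0.08, and PHGDH, the first enzyme of serine synthesis, at 0.25 ± 0.05. All 5 tested nucleoside transporters were called, 3 lower and 2 higher, where 26.2% of all genes tested were lower and 25.8% higher. SLC29A2, an equilibrative carrier, was at -0.89 ± 0.06, and SLC29A4 and SLC29A3 at 0.97 ± 0.06 and 0.64 ± 0.11. SLC28A3, a concentrative carrier, was called lower on 19 to 24 counts per siSCR library and 1 to 3 counts per siSURF2 library.

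The S-phase and regulator genes were measured beside the members. Of 30 S-phase genes 23 fell, 0 rose and 7 missed the threshold, with a median of -0.44 (edgeR). That is 76.7% lower, where 26.2% of all genes tested were lower and 25.8% higher. At an unadjusted p under 0.05, 0 rose with edgeR, and DESeq2 and limma-voom also called 0 higher, while 1 was called higher without siSCR replicate 2. MCM6 and CDC6, of the replicative helicase and its loading, had log2 fold changes of -0.93 ± 0.05 and -0.80 ± 0.05. Of 15 regulators 8 fell and 4 rose (53.3% and 26.7%). Among them were E2F1 (-0.76 ± 0.06) and E2F3 (-0.76 ± 0.08), which fell, and E2F7 (1.15 ± 0.06), which rose. The other E2F genes listed, E2F2 (-0.38 ± 0.06), E2F4 (-0.23 ± 0.06) and E2F8 (-0.42 ± 0.09), also fell. E2F7 was thus the only E2F gene listed that rose. The part of these genes, and of the share of cells in S phase, in the fall of the nucleotide enzymes was not tested.

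**Figure D5:**
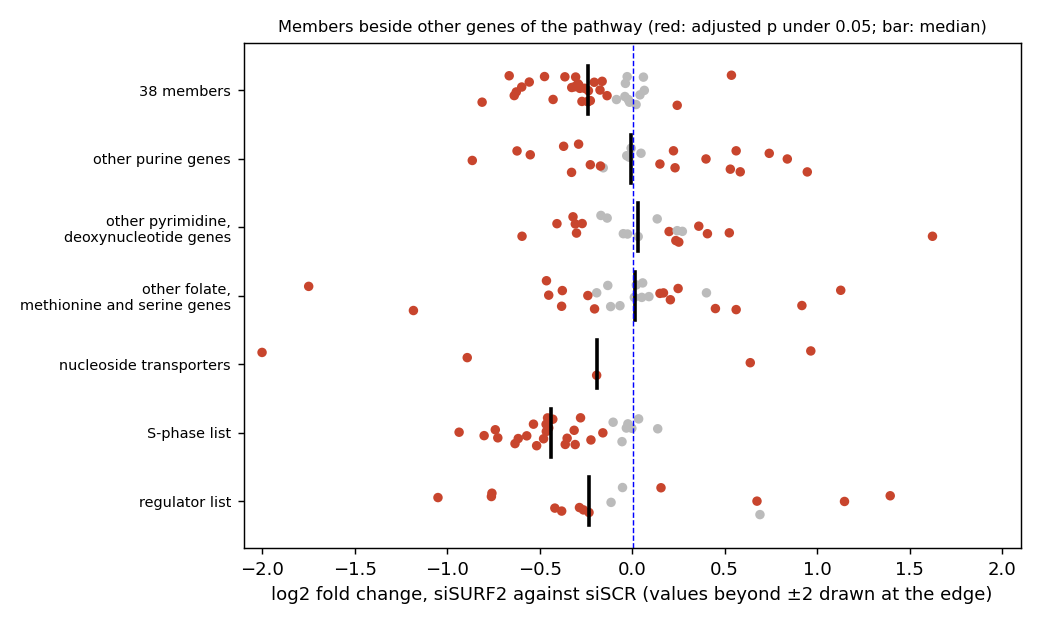
Log2 fold changes of siSURF2 against siSCR for the members and for 6 lists of related genes, 1 point per tested gene (red where the adjusted p was under 0.05), with a bar at each median and a dashed line at the median of all genes. The members (median -0.24) and the S-phase genes (-0.44) lie mostly left of 0, and SLC28A3 is drawn at the edge.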

How the data were processed

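For 6 libraries the authors deposited a table of raw counts, not normalized. The submitters' processing notes name GRCh38, fastp 0.23.1 and STAR 2.5.2b, with the counting tool, the annotation and the use of strand not given in the sources used here. Of 58051 gene rows, 56948 were named from a table of gene names and 499 from GENCODE release 29; 92 ERCC rows stayed out of library sizes and tests. Genes were filtered (filterByExpr, minimum count 10, minimum total 15), scaled by TMM and tested with the quasi-likelihood F-test of edgeR 4.0.16 (robust, group only) in R 4.3.3, and p-values were adjusted by Benjamini-Hochberg over 17561 genes. The common biological coefficient of variation was 5.13%. CPM values are TMM-scaled. Ratios were tested in SciPy 1.17.1. The program was tested on simulated data.

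The members and lists were chosen with earlier results of these data known. Every branch gives up to 3 members per direction, by smallest adjusted p, and every called isozyme, with values per library. Every list gives up to 2 genes per direction, and the other E2F genes are named beside those of the regulator list. A few genes within the rule are not reported here. Proteins of isozymes are not used here. Alternatives were other factors, spike-in scaling, other filters, DESeq2 1.42.0, limma-voom 3.58.1, a non-robust prior, the replicate block and leaving out each library.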

Additional observations from a re-analysis of the deposited data

How the results depend on the processing

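Between 23 and 25 members were lower and 2 higher on leaving out 1 library, and the same range held for every other setting except spike-in scaling, with 1 lower and 0 higher. With the replicate block 25 were lower and 2 higher, and the block changed no member's call. Numbers did not pair the libraries: correlations of same-numbered deviations were 0.0035, -0.092 and -0.039. SURF2 ran from -3.37 to -3.25 without 1 library. With spike-in scaling, the purine ring and folate medians were -0.36 and -0.213. With upper-quartile factors the purine ring, IMP and folate medians were -0.27, 0.0197 and -0.12, and the IMP median was -0.0763 with a filter of 1 CPM. Leaving out 1 library, the purine ring median ran from -0.36 to -0.27 and the IMP median from -0.19 to 0.07, so the IMP median has no stable sign. In the main fit the IMP median was the value of ADSS1 (-0.0263), a gene with 18 to 28 counts per library. GMPS and IMPDH2 stayed lower and ADSS2 higher on leaving out any 1 library. With spike-in scaling, 1 other purine gene was lower and 1 higher, 0 other pyrimidine genes were lower and 1 higher, 2 other folate genes were lower and 0 higher, 1 transporter was higher, 4 S-phase genes were lower, and 3 regulators were lower and 2 higher. Of S-phase genes, 0 to 1 rose on leaving out 1 library. Of 591 values of single members under alternatives, 553 kept their side of the threshold, and the rest are lost calls, all from spike-in scaling, RRM1 or UMPS. With 18.2 to 20.0 counts per CPM in siSURF2, levels under 1 CPM rest on few counts.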
